A study of Mus musculus with 3 samples.

Results

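The genes of the MHC class II presentation pathway were followed here across the white blood cells of mouse liver tumours. They are 10 of the 32285 features in the deposited matrices, chosen by name and matched by gene symbol, and each symbol was found once. H2-Aa, H2-Ab1 and H2-Eb1 encode chains of the class II molecules, Cd74 the invariant chain, H2-DMa, H2-DMb1 and H2-DMb2 the chains of H2-DM, H2-Oa and H2-Ob those of H2-DO, and Ciita the class II transactivator. Tumours had been taken from the livers of MYC-ON mice (C57BL6, aged 18 weeks), live CD45+ cells had been sorted from them, and 10x Genomics 3′ v3 libraries had been made from them. There are 3 libraries, 1 from DU101-treated mice, 1 from DU102-treated mice and 1 from control mice. All 3 come from MYC-ON tumours, and the labels do not say how or in which cells MYC is switched on. DU101 and DU102 are known here only by these code names. Dose, duration of treatment, what the control mice received and how many mice stand behind a library were not stated in the labels. Because each group is a single library (n = 1), no difference between groups could be tested, and intervals in this report are 95% intervals for counting error only.

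Class II molecules are pairs of an alpha and a beta chain that show peptides from endocytosed proteins to CD4+ T cells. The invariant chain Cd74 escorts new pairs to the endosome, where H2-DM exchanges the remnant of Cd74 for a peptide and H2-DO, found mainly in B cells and some dendritic cells, restrains H2-DM. Ciita binds no DNA itself but is recruited by factors sitting on the X and Y boxes of class II promoters, and in mice its own expression is mostly limited to dendritic cells, B cells and macrophages exposed to interferon gamma. C57BL6 mice carry a defective gene for the alpha chain of the E molecule, so the H2-Eb1 product lacks its usual partner in this strain.

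In the mm10 gene models, 8 of the 10 genes lie close together on chromosome 17, from H2-Oa (chr17:34092340-34095234, plus strand) through H2-DMa, H2-DMb2, H2-DMb1, H2-Ob and H2-Ab1 to H2-Aa (chr17:34282744-34287823, minus strand) and H2-Eb1 (chr17:34305867-34316674, plus strand). Ciita lies on chromosome 16 (chr16:10480059-10528418, plus strand). RefSeq promoter windows on GRCm38.p6, from 250 bases before to 50 bases after a gene's start, were at hand for 7 of the 10. The stretch from 110 to 36 bases upstream of the start is shown for 5 of them, on the strand of the gene and 5′ to 3′, because it holds 1 or both of the boxes through which Ciita is known to act. The stretches of H2-DMa, chr17:34122722-34122796 and chr17:34125408-34125482, hold neither. They lie inside the mm10 gene model of H2-DMa (chr17:34119541-34139101), so they belong to internal starts, and other starts of this gene were not read. The H2-DMb2 stretch likewise lies inside its gene model (chr17:34143307-34151555). The H2-DMb1 stretch was left out because it overlaps an exon by more than the 4 bases of the H2-Oa stretch. Capitals mark the letters AGCAAC, the core of the X box, and ATTGG, the Y box.
H2-Eb1, chr17:34305757-34305831, plus strand: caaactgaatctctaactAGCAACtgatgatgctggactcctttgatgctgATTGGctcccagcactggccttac
H2-Ob, chr17:34238795-34238869, plus strand: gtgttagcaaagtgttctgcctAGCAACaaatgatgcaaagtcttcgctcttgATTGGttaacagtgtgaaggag
H2-Oa, chr17:34092269-34092343, plus strand: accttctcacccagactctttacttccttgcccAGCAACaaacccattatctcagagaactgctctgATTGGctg
H2-Aa, chr17:34287859-34287933, minus strand: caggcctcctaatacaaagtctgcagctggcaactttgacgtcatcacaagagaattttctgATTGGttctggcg
H2-DMb2, chr17:34145139-34145213, plus strand: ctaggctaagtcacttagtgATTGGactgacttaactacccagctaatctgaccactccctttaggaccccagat
In H2-Eb1, H2-Ob and H2-Oa the X box core starts 33, 31 and 34 bases before the Y box. H2-Aa and H2-DMb2 hold ATTGG in this stretch without these X box letters. Read on both strands of the whole window, ATTGG was found in 7 of the 7 genes and in 37.4% of all 32851 RefSeq windows, AGCAAC in 3 of the 7 and 14.8% of all, and GGACCTT, the letters searched for the S box, in 1 of the 7 and 3.33% of all. The motifs do not overlap one another where they are printed. On either strand, AGCAAC starting 25 to 40 bases before ATTGG was found in the same 3 genes and in 0.24% of all windows, a spacing chosen after the windows had been read. These are matches of letters, and no binding was measured.

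The matrices held 15686, 13650 and 12639 barcodes for DU101, DU102 and control, with 106604935, 96817875 and 91013198 unique molecular identifiers (UMIs, 1 per captured transcript) in all. After filtering and removal of called doublets 13799, 11461 and 10154 cells remained, with a median of 4832, 5091 and 6336 UMIs. Each cell was placed in the gate of 1 of 19 cell types by markers that include no class II gene, and 28302 of 35414 cells were placed. Ptprc, which encodes CD45, had a UMI in 95.1, 97.8 and 97.3% of gated T cells, but in 17.0, 22.3 and 25.4% of cells in the hepatocyte or tumour gate and 12.1, 25.3 and 16.1% of those in the endothelial gate, so both of these gates hold cells in which the sorted marker was mostly not seen. Between 37 and 57 barcodes were shared by each pair of libraries. Xist, made in female cells, had a UMI in 35.9% of macrophages and 78.7% of cDC1 of the control library and in at most 0.77% of these cells in either treated library, so the sex of the cells and the treatment cannot be told apart in comparisons with the whole control library. Those control cells that held Y-linked RNA but not Xist were numerous enough to be set against the treated libraries in 7 gates. In these ratios only the control cells were selected, and all treated cells of the gate were kept. Leaving out control cells with Xist also leaves out those that hold Xist RNA from other cells. Xist was seen in 94.2% of cDC2 and 87.3% of plasmacytoid dendritic cells of the control library, which are rich in class II RNA. How far this selection itself lowers the class II level of the control cells was not tested.

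Conventional dendritic cells carried the most class II RNA. The summed class II level of a cell is the sum of its H2-Aa, H2-Ab1, H2-Eb1 and Cd74 UMIs. Its median was 559, 527 and 556 UMIs per cell in cDC1 of DU101, DU102 and control (261, 139 and 183 cells) and 387, 389 and 502 UMIs in cDC2 (187, 68 and 224 cells). Both are conventional dendritic cells, cDC1 known for cross-presentation and cDC2 for priming CD4+ T cells. Migratory dendritic cells, marked by Ccr7 and Fscn1, followed with medians of 151, 122 and 167 UMIs. B cells had 56, 53 and 50 UMIs, and plasmacytoid dendritic cells (pDC) 53, 54 and 60 UMIs. In contrast, the median was 0 or 1 UMI per cell in T cells, NK cells and neutrophils of every library.

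Scaled to the UMI total of the gate (CPM), the summed levels gave the following order of cell types. cDC2 ranged from 35604 to 42847 CPM over the 3 libraries and cDC1 from 31863 to 37140 CPM, and these ranges overlap. Migratory dendritic cells lay below both, at 24631 to 26981 CPM, and above B cells, at 15102 to 17938 CPM. Macrophages spread from 11362 to 20752 CPM and overlapped B cells. pDC lay below macrophages at 7646 to 8573 CPM, and above monocytes at 2141 to 2920, patrolling monocytes at 2001 to 2682 and plasma cells at 1912 to 2305 CPM, which overlap. T cells, at 679, 412 and 450 CPM in DU101, DU102 and control, overlapped neutrophils, NK cells, neutrophil precursors and the endothelial gate.

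**Figure D1:**
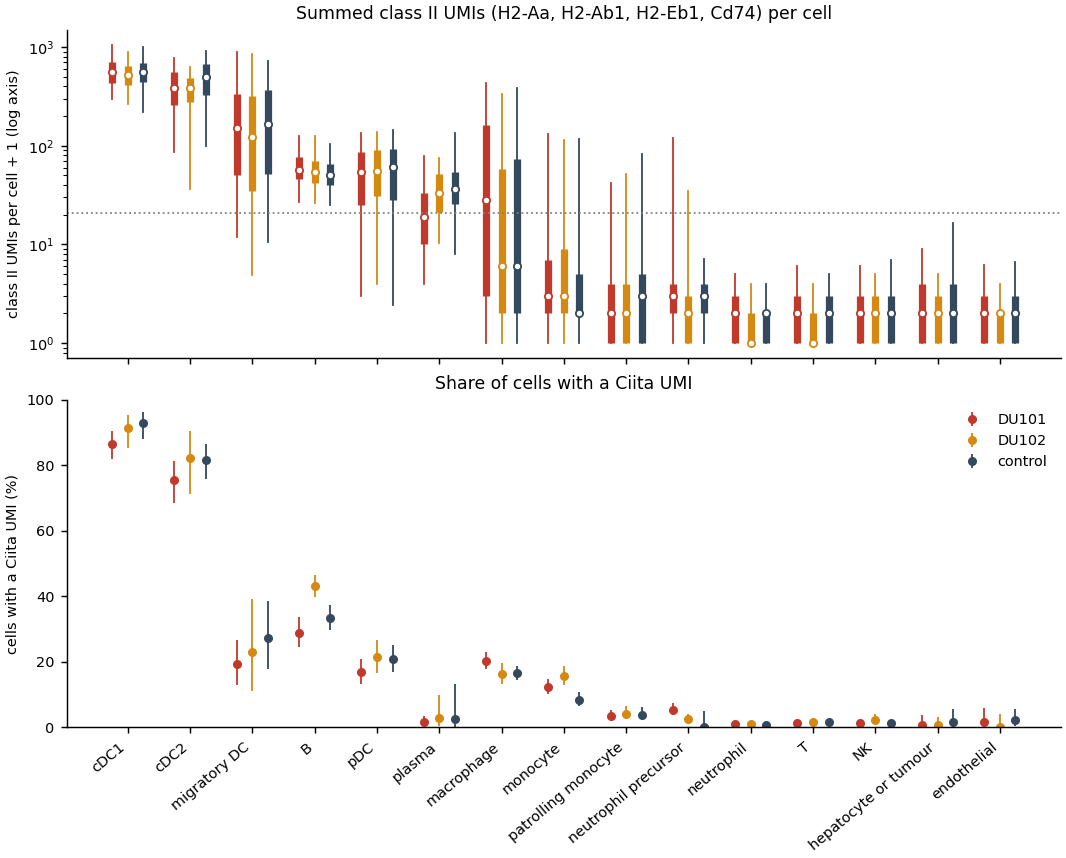
Summed class II UMIs per cell (top, UMIs plus 1 on a log axis) and percent of cells with a Ciita UMI (bottom) in 15 gates, for DU101, DU102 and control. In the top panel white points are medians, thick bars the middle 50% of cells, thin lines the 5th to 95th percentile, and the dotted line 20 UMIs; in the bottom panel lines are exact 95% intervals. cDC1 have medians of 559, 527 and 556 UMIs and Ciita in 86.6, 91.4 and 92.9% of cells, while T cells have medians of 1, 0 and 1 UMI and Ciita in 1.37, 1.69 and 1.71%.

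Ciita was seen most often in cDC1 and cDC2. It had a UMI in 86.6% of cDC1 in DU101, 91.4% in DU102 and 92.9% in control, and in 75.4, 82.4 and 81.7% of cDC2. The same share was 29.0, 43.1 and 33.4% in B cells, 20.3, 16.3 and 16.6% in macrophages, and 16.9, 21.4 and 20.8% in pDC. Migratory dendritic cells, next to cDC1 and cDC2 by class II level, had Ciita in only 19.3, 23.1 and 27.3% of cells, and after the thinning described below in 4.35, 8.11 and 14.9%. T cells, which are not known to express Ciita in mice, gave 1.37, 1.69 and 1.71% at median depths of 4114, 4911.5 and 5630 UMIs, against 15267, 16111 and 16899 UMIs in cDC1 and 2911, 3105 and 3198.5 UMIs in B cells. B cells were thus shallower than T cells and still held Ciita far more often. When each cell was thinned to 2000 UMIs, Ciita was left in 30.3, 32.4 and 28.4% of cDC1, 20.2, 29.5 and 22.6% of B cells and 0.564, 0.621 and 0.776% of T cells. Cells under 2000 UMIs were left out of that count, 27, 49 and 21 B cells, 130, 58 and 22 T cells and no cDC1.

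Within single gates the same split was seen. A limit of 20 class II UMIs, set after the distributions had been seen, marked class II-high cells. Of macrophages above it, 34.9% (181 of 519), 40.7% (88 of 216) and 41.5% (190 of 458) in DU101, DU102 and control had a Ciita UMI, and of those below it 3.18, 2.14 and 1.59%. The class II-low macrophages were shallower, with median depths of 1826.5, 2572 and 2726.5 UMIs against 5845, 7499.5 and 8311.5 UMIs in the class II-high ones. Among monocytes the depths were close, 7405, 8492.5 and 9519.5 UMIs in class II-high and 6455, 8262 and 8584 UMIs in class II-low cells. There, Ciita was seen in 51.4, 52.5 and 43.3% of class II-high cells and 4.17, 7.05 and 2.92% of class II-low cells. Class II-high monocytes made up 17.2, 18.9 and 13.8% of their gate.

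Among the gates with a median of at most 2 UMIs, T cells had most of their class II RNA in a few cells. This was not so in every such gate. Class II-low NK cells of control had 140 CPM, beside 240 CPM for that whole gate. In T cells, 45 of 3498 DU101 cells, 16 of 2314 DU102 cells and 15 of 1697 control cells were class II-high, and they held 63.6, 67.0 and 59.6% of the gate's class II UMIs. A Ciita UMI was found in 35.6, 56.2 and 33.3% of them, against 0.927, 1.31 and 1.43% of the other T cells. Their median depth was 10535, 14588 and 11209 UMIs, against 4083, 4889 and 5612.5 UMIs in the others. Over the 3 libraries, 57 of 76 class II-high T cells and 9.13% of the others also held at least a pair of markers of B cells, macrophages or a dendritic type. The same shares were 54.5 and 9.57% in NK cells and 59.7 and 7.13% in neutrophils. Called doublets had been removed before these counts, and how many such cells are further doublets was not tested.

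The other T cells, NK cells and neutrophils held 0.788 to 1.65 class II UMIs per cell on average. The H2-Eb1 share of those UMIs was 13.5, 7.11 and 7.62% in T cells of DU101, DU102 and control and 14.6, 8.17 and 12.7% in neutrophils. In cDC1 the H2-Eb1 share was 15.3, 7.64 and 10.2%, in macrophages 16.0, 7.44 and 10.9% and in B cells 13.1, 2.97 and 8.23%. In the low cells too it was highest in DU101. The Cd74 share was 43.4, 45.7 and 43.3% in the low neutrophils, 39.9, 44.5 and 42.9% in cDC1 and 52.1, 58.3 and 55.4% in B cells. The Cd74 shares of cDC2 and macrophages were not set beside these. The share of these low levels that is RNA carried over from other cells, and from which cells, was not tested.

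Among the chains, H2-Aa, the alpha chain of the A molecule, was highest in cDC2 with 8721, 7113 and 8032 CPM in DU101, DU102 and control. Next were cDC1 with 7492, 6689 and 6908 CPM and migratory dendritic cells with 6249, 6395 and 5566 CPM. cDC1 and cDC2 overlapped over the libraries, and migratory cells stayed below both. B cells had 3340, 3140 and 3045 CPM and macrophages 4291, 2422 and 2361 CPM, and these overlapped as well. H2-Ab1, the beta chain of the same molecule, was level with H2-Aa in most gates but not in migratory dendritic cells, with 3917, 4905 and 3904 CPM against 9162, 8577 and 8325 CPM in cDC1 and 9836, 9203 and 9590 CPM in cDC2. It made up 14.6, 18.4 and 15.9% of the class II UMIs of class II-high migratory cells, against 24.7, 26.9 and 25.7% in cDC1. These tags count transcript ends and are not scaled to gene length, and differences between genes in capture were not measured.

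H2-Eb1, the beta chain of the E molecule, was the member with the largest ratios between libraries in these gates. cDC1 held 5666, 2433 and 3295 CPM in DU101, DU102 and control, and B cells 2345, 455 and 1242 CPM. In macrophages it was 3320, 845 and 1239 CPM. In each of these gates DU101 was highest and DU102 lowest, and the share of B cells with an H2-Eb1 UMI was 98.5, 53.6 and 94.1%.

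Cd74 was the most abundant member in every gate named here. It reached 17724, 16829 and 17524 CPM in cDC2 of DU101, DU102 and control, 14820, 14164 and 13907 CPM in cDC1 and 11542, 12958 and 12103 CPM in migratory dendritic cells. B cells followed with 9338, 8955 and 8376 CPM, overlapping macrophages with 8596, 5401 and 5103 CPM. Plasma cells kept Cd74, with 1322, 1524 and 1578 CPM, while their H2-Aa was 129, 146 and 192 CPM. Cd74 thus made up 69.1, 68.8 and 68.7% of the class II UMIs of their class II-high cells. Ciita was seen in 1.73, 2.86 and 2.50% of plasma cells (8 of 463, 2 of 70 and 1 of 40), beside 1.37, 1.69 and 1.71% of T cells. Plasma cells were sequenced to 15859, 20033.5 and 22341 UMIs per cell. The interval of the plasma share was 0.749 to 3.38% in DU101, but it reached 9.94% in DU102 and 13.2% in control.

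H2-DM followed the class II chains only in part. H2-DMa, its alpha chain, was highest in cDC2 with 847, 926 and 814 CPM in DU101, DU102 and control and in cDC1 with 722, 718 and 708 CPM, without overlap between these gates. B cells had 390, 377 and 311 CPM, pDC 360, 305 and 293 CPM and macrophages 339, 252 and 262 CPM, all overlapping. Monocytes followed with 257, 228 and 210 CPM, overlapping macrophages. H2-DMa was found in 67.1, 70.8 and 70.6% of monocytes although their median class II level was 2, 2 and 1 UMI. For each 100 class II UMIs of the whole gate, monocytes held 12.9, 15.3 and 14.9 H2-DM UMIs, against 3.51, 3.97 and 3.98 in cDC1. Migratory dendritic cells held 1.08, 1.07 and 0.91 H2-DM UMIs per 100.

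The pair of H2-DM beta chain genes were used by different cells. H2-DMb1 was highest in cDC2 with 583, 575 and 526 CPM in DU101, DU102 and control and in cDC1 with 514, 462 and 506 CPM, and macrophages had 266, 170 and 165 CPM. B cells held only 75.4, 80.3 and 87.5 CPM of it. H2-DMb2, in turn, was highest in B cells with 355, 324 and 300 CPM, followed by cDC2 with 190, 154 and 175 CPM. In macrophages H2-DMb2 was at 10.9, 23.8 and 15.8 CPM. H2-DMb2 was therefore above H2-DMb1 in B cells and below it in cDC1, cDC2, pDC and macrophages in all 3 libraries. In migratory dendritic cells H2-DMb2 was also above H2-DMb1, with 110, 18 and 59 UMIs against 59, 13 and 25. These genes are paralogs, with 75.5% of aligned positions the same over the whole transcript and 66.1% over the last 300 bases, which 3′ tags mostly cover and where the longest identical run was 23 bases. The share of reads that could match both was not tested.

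H2-DO was a feature of B cells and dendritic cells. H2-Oa, its alpha chain, reached 173, 192 and 158 CPM in B cells of DU101, DU102 and control and 177, 163 and 153 CPM in cDC2, overlapping each other. pDC had 120, 94.6 and 83.5 CPM and cDC1 95.7, 82.7 and 90.9 CPM, again overlapping. H2-Ob, the beta chain, was highest in B cells with 303, 203 and 256 CPM. cDC1 followed with 90.0, 72.3 and 87.0 CPM, overlapping cDC2 with 70.2, 65.0 and 72.7 CPM. In pDC, H2-Ob was at only 3.94, 3.15 and 4.32 CPM, near the 3.15, 1.78 and 3.11 CPM of T cells, so pDC held H2-Oa with little H2-Ob. Macrophages held little of either chain, 4.52, 3.52 and 6.06 CPM of H2-Oa and 5.54, 5.58 and 3.83 CPM of H2-Ob. Outside these cells, H2-Oa was at 34.3, 32.6 and 38.8 CPM in the basophil or mast gate (15, 4 and 10 UMIs), 12.0, 16.4 and 12.6 CPM in T cells and 11.9, 20.7 and 11.4 CPM in NK cells. NK cells had an H2-Oa UMI in 8.71, 16.5 and 11.2% of cells, against 5.40, 8.64 and 7.42% of T cells and 1.88, 0.509 and 2.14% of macrophages, whose median depths were 3939, 4417 and 5063 UMIs against 7274.5, 8705 and 10374 UMIs in NK cells.

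Ciita itself was highest in cDC2, cDC1 and B cells. It was at 196, 233 and 217 CPM in cDC2 of DU101, DU102 and control, overlapping cDC1 at 160, 180 and 197 CPM. B cells at 109, 161 and 132 CPM overlapped cDC1, and macrophages followed at 67.7, 52.3 and 48.2 CPM without overlapping B cells. Migratory dendritic cells, at 34.5, 33.7 and 43.5 CPM, were below macrophages despite their larger chain levels, and they overlapped pDC at 29.1, 36.9 and 32.6 CPM. Monocytes had 25.1, 30.2 and 17.0 CPM, and T cells 3.76, 3.98 and 3.36 CPM. In B cells the share with a Ciita UMI was 43.1% (39.7 to 46.6%) in DU102 against 33.4% (29.7 to 37.3%) in control, and the CPM ratio of 1.22 did not reach the size used below.

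**Figure D2:**
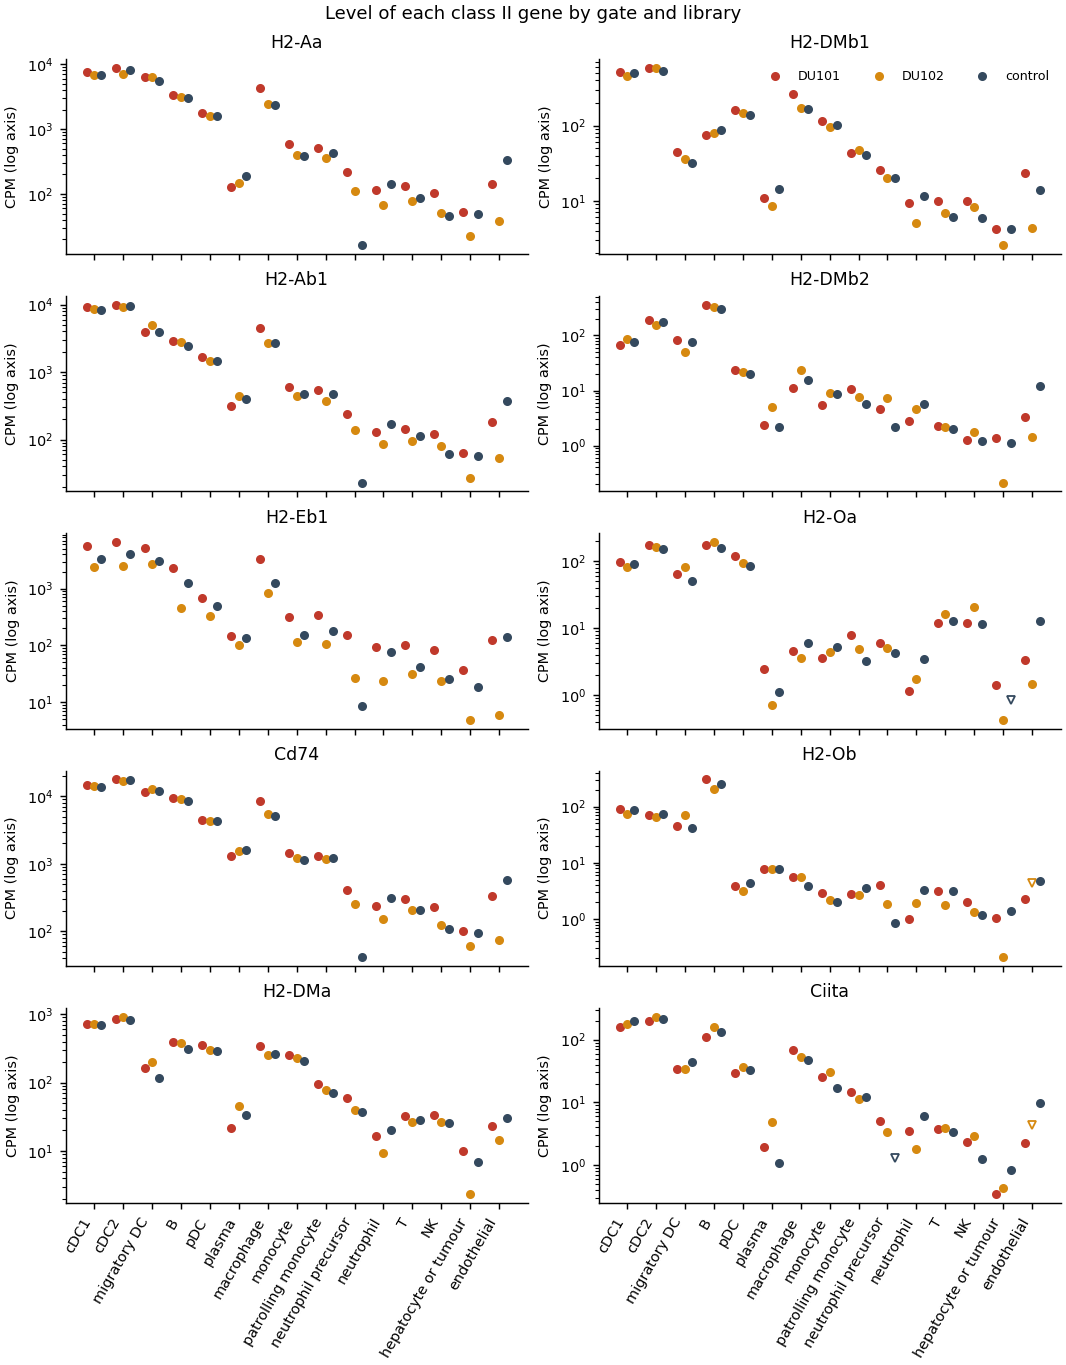
CPM of each of the 10 genes (log axis, 1 panel per gene, axes differ) in 15 gates, with a point per library for DU101, DU102 and control; open triangles mark gates with no UMI at the level that 3 counts would give. The points of a gate lie close together for most genes in cDC1, cDC2 and B cells, and H2-Eb1 is spread most, at 2345, 455 and 1242 CPM in B cells.

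Libraries were compared in the 13 gates with at least 50 cells in each library. A level was called higher or lower by size when it differed 1.5-fold or more and the Poisson interval of the ratio lay on that side of 1, and a gene was measured where both libraries together held at least 30 UMIs. This is a rule of size and not a test. Fewer class II-positive cells in a gate and less class II RNA per cell both lower such a summed level.

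In DU101 against control, the summed class II level was higher by size in 4 of 13 gates and lower in 1, and the ratio was above 1 in 11. Macrophages had 20752 CPM in DU101 and 11362 CPM in control, 1.83-fold higher (1.81 to 1.84). Here 5 of 10 members were higher by size, with 10 measured, where 4.99% of all genes were, and 0 were lower beside 6.63%. These were H2-Aa at 4291 against 2361 CPM, H2-Ab1 at 4546 against 2659 CPM, H2-Eb1 at 3320 against 1239 CPM, Cd74 at 8596 against 5103 CPM, and H2-DMb1 at 266 against 165 CPM. The median log2 ratio of the members was 0.61 beside -0.07 over all genes measured. Ciita, at 67.7 against 48.2 CPM, did not reach the size. Against control cells with Y-linked RNA alone the summed ratio was 3.49 in macrophages, 5.86 in monocytes and 1.23 in B cells, and in neutrophils it was 2.72 where it was 0.82 against all control cells. T and NK cells gave 4.94 and 3.45 against those control cells.

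In the dendritic and B cell gates of the same comparison, H2-Eb1 alone reached the size. It was 1.72-fold higher (1.68 to 1.76) in DU101 cDC1, 1 of 10 members where 2.19% of genes were higher, while 0 were lower beside 6.40%. The cDC2 ratio was 1.60 (1.56 to 1.64), 1 of 10 beside 2.27% of genes with 0 lower beside 7.25%, and the B cell ratio 1.89 (1.80 to 1.98), 1 of 10 beside 4.21% with 0 lower beside 6.84%. In pDC 0 of 9 measured members were higher beside 2.88% of genes, and 0 lower beside 4.48%. Monocytes had H2-Eb1 at 319 CPM in DU101 and 153 CPM in control, 2.08-fold higher and 1 of 10 beside 5.76%, and H2-DMb2 at 5.39 against 8.57 CPM, lower and 1 of 10 beside 4.54%. Patrolling monocytes had H2-Eb1 at 337 against 178 CPM, 1.90-fold higher and 1 of 8 measured beside 2.99%, with 0 lower beside 5.49%. Summed levels in cDC1, cDC2, B cells and pDC were 1.15-, 1.09-, 1.19- and 1.10-fold higher in DU101, and 1.08-, 1.03-, 1.13- and 1.08-fold higher without H2-Eb1.

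The remaining calls of that comparison fell in gates with low class II. T cells had 679 CPM in DU101 and 450 CPM in control, 1.51-fold higher (1.46 to 1.56), with 3 of 10 members higher, H2-Aa, H2-Eb1 and H2-DMb1, beside 4.46% of genes, and 0 lower beside 4.86%. NK cells had 534 against 240 CPM, 2.22-fold higher (2.12 to 2.33), with 5 of 8 measured members higher beside 3.10% and 0 lower beside 5.01%. Neutrophil precursors had 1018 against 89.6 CPM, 11.4-fold higher (9.91 to 13.1), with 7 of 10 higher beside 5.66% and 0 lower beside 5.13%. Control held only 70 neutrophil precursors and no Ciita UMI in them. In neutrophils, 2 of 8 measured members, H2-DMb2 and Ciita, were lower beside 19.9% of genes and 0 higher beside 7.08%, and in the hepatocyte or tumour gate H2-Eb1, 1 of 5 measured, was higher beside 2.53% and 0 lower beside 13.7%. The endothelial gate had 788 CPM in DU101 and 1408 CPM in control, 1.79-fold lower (1.64 to 1.95), with H2-Aa, H2-Ab1 and Cd74, 3 of 6 measured, lower beside 4.40% and 0 higher beside 4.63%. Without the class II-high cells of these gates, the ratio was 1.38 in T cells, 1.17 in NK cells, 1.78 in neutrophil precursors and 1.16 in the endothelial gate, so the T and NK calls were lost and the endothelial direction turned. In neutrophil precursors of DU101 and control, 58 and 1 cells were class II-high.

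In DU102 against control, the class II levels of the dendritic, B cell, macrophage and monocyte gates lay close together when all control cells were used. The summed ratio was 0.98 in cDC1, 0.91 in cDC2, 1.02 in B cells, 0.98 in pDC, 1.00 (0.99 to 1.01) in macrophages and 1.01 in monocytes. Against control cells with Y-linked RNA alone, it was 1.91 in macrophages, 4.36 in monocytes and 1.05 in B cells, and 6 of the 7 gates left were higher by size. Over the 13 gates the sum was higher by size in 1 and lower in 3, with a ratio above 1 in 5. Of the members, 0 of 10 reached the size in cDC1, where 2.98% of genes were higher and 2.94% lower. H2-Eb1 alone was lower in cDC2, at 2459 against 4113 CPM and 1.67-fold lower (1.59 to 1.76), 1 of 10 beside 5.16% with 0 higher beside 3.11%. It was also alone in B cells, at 455 against 1242 CPM and 2.73-fold lower (2.56 to 2.91), 1 of 10 beside 3.57% with 0 higher beside 5.55%. Patrolling monocytes had it at 107 against 178 CPM, 1.66-fold lower and 1 of 8 measured beside 2.28% with 0 higher beside 4.83%. In pDC 0 of 9 measured members were called, beside 3.63% of genes higher and 1.95% lower. Calls in the other direction were H2-DMb2 in macrophages at 23.8 against 15.8 CPM, 1 of 10 beside 3.52% with 0 lower beside 3.17%, and Ciita in monocytes at 30.2 against 17.0 CPM, 1.78-fold higher (1.40 to 2.27), 1 of 9 measured beside 5.27% with 0 lower beside 3.07%.

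Against all control cells, the low gates of DU102 mostly held less. Neutrophils had 327 CPM in DU102 and 702 CPM in control, 2.15-fold lower (2.05 to 2.24), with 8 of 10 members lower beside 21.0% of genes and 0 higher beside 6.10%. Against control cells with Y-linked RNA alone the direction turned, with the sum 1.54-fold higher in DU102 and H2-Aa, H2-Ab1, H2-Eb1, Cd74 and H2-DMb1 also above control. That choice leaves out control neutrophils holding Xist RNA from other cells, while the treated neutrophils were not selected. The hepatocyte or tumour gate had 115 against 219 CPM, 1.91-fold lower (1.71 to 2.13), with 5 of 5 measured lower beside 8.88% and 0 higher beside 4.94%. The endothelial gate had 170 against 1408 CPM, 8.27-fold lower (6.87 to 10.0), with 5 of 5 measured lower beside 4.78% and 0 higher beside 5.51%, and class II-high cells numbered 1 of 91 in DU102 and 7 of 180 in control. Neutrophil precursors had 534.5 against 89.6 CPM, 5.97-fold higher (5.20 to 6.88), with 6 of 9 measured higher beside 9.38% and 0 lower beside 4.55%. In T cells 1 of 10, H2-Ob, was lower beside 2.15% and 0 higher beside 3.75%, and in NK cells 2 of 8 measured, H2-Oa at 20.7 against 11.4 CPM and Ciita at 2.88 against 1.27 CPM, were higher beside 3.39% and 0 lower beside 2.35%. Without class II-high cells the neutrophil level was 1.97-fold lower, the hepatocyte or tumour level 1.59-fold lower and the endothelial level 1.49-fold lower, and the neutrophil precursor ratio was 1.18, so the endothelial and neutrophil precursor calls were lost.

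DU101 against DU102 gave the most calls, and they ran one way. The summed level was higher by size in 7 of 13 gates, lower in 0, and the ratio was above 1 in all 13. Macrophages had 20752 CPM in DU101 and 11366 CPM in DU102, 1.83-fold higher (1.80 to 1.85), with 5 of 10 members higher beside 5.27% of genes and H2-DMb2 lower, 1 of 10 beside 9.42%. Without H2-Eb1 the macrophage ratio was 1.66. H2-Eb1 was higher by size in DU101 in all 13 gates. Its ratio was 2.33 (2.26 to 2.40) in cDC1, the 1 of 10 members higher beside 2.79% of genes with 0 lower beside 7.51%. It was 2.67 (2.54 to 2.81) in cDC2, 1 of 10 beside 3.86% with 0 lower beside 5.91%, and 5.15 (4.84 to 5.48) in B cells, 1 of 10 beside 3.43% with 0 lower beside 7.33%. In pDC it was at 698 against 332 CPM, 1 of 9 measured beside 3.03% with 0 lower beside 6.16%, and in patrolling monocytes the ratio was 3.14, 1 of 8 measured beside 2.47% with 0 lower beside 7.54%. Monocytes had H2-Eb1 at 319 CPM in DU101 and 116.5 CPM in DU102, 1 of 10 higher beside 2.74%, and H2-DMb2 lower, 1 of 10 beside 3.74%.

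Calls in the low gates of DU101 against DU102 were 4 of 10 members higher in T cells beside 3.17% of genes with 0 lower beside 5.36%, and 4 of 8 measured higher in NK cells beside 2.72%, where H2-Oa was lower, 1 of 8 beside 6.22%. In neutrophils 7 of 10 were higher beside 4.65% and H2-DMb2 lower, 1 of 10 beside 3.95%. Neutrophil precursors had 6 of 10 higher beside 2.20% and H2-DMb2 lower, 1 of 10 beside 5.38%. The hepatocyte or tumour gate had 5 of 5 measured higher beside 3.42% and 0 lower beside 9.66%, and the endothelial gate 4 of 5 measured higher beside 4.49% and 0 lower beside 4.67%. Without class II-high cells the summed ratio was 1.83 in T cells, 1.30 in NK cells, 1.79 in neutrophils, 1.51 in neutrophil precursors, 1.73 in the hepatocyte or tumour gate and 1.72 in the endothelial gate. Both comparisons with control share the control library, and both comparisons of DU101 share the DU101 library.

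**Figure D3:**
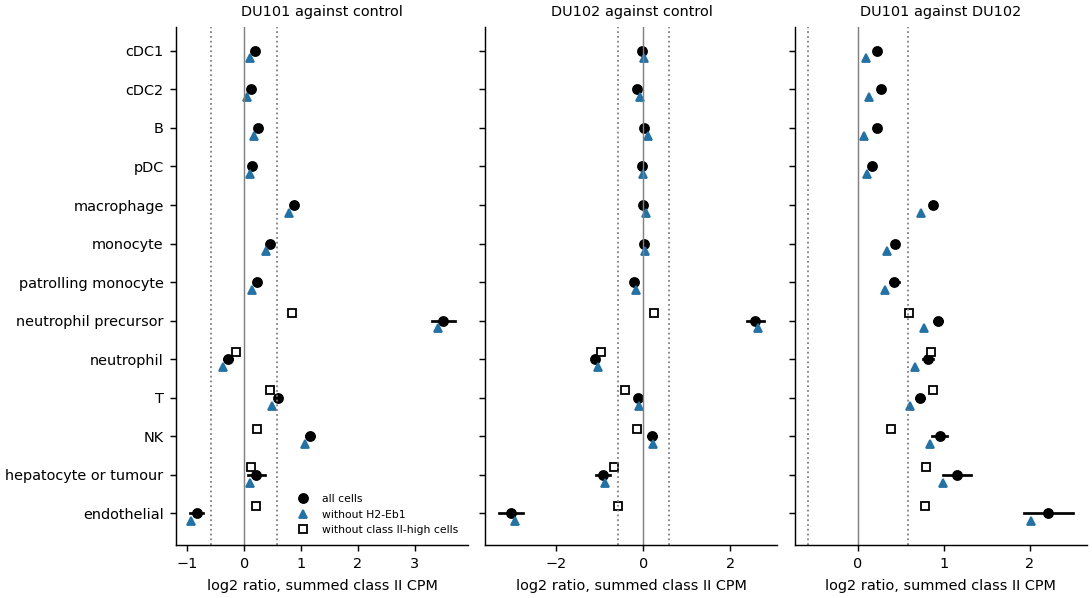
Log2 ratios of summed class II CPM in 13 gates for DU101 against control, DU102 against control and DU101 against DU102, with x axes that differ between panels. Circles show all cells with Poisson 95% intervals (often narrower than the circle), triangles the sum without H2-Eb1, open squares (low gates only) the ratio without class II-high cells, and dotted lines 1.5-fold. Macrophages of DU101 lie at 0.87 against control and at 0.87 against DU102, and all 13 circles of the right panel are above 0.

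Among macrophages, DU101 had both a larger share of class II-high cells and higher levels within them. The gate held 959 DU101, 589 DU102 and 1214 control cells. Class II-high cells were 54.1% (50.9 to 57.3%) of them in DU101, 36.7% (32.8 to 40.7%) in DU102 and 37.7% (35.0 to 40.5%) in control. Median levels were 27, 5 and 5 class II UMIs per cell. Thinned to 2000 UMIs, which left out 283, 180 and 316 cells, the shares were 60.2, 34.0 and 35.6%, and with a limit of 40 UMIs 45.7, 28.7 and 31.0%. Within class II-high macrophages alone, the sum was 28744, 21757 and 21057 CPM, with H2-Eb1 at 4622, 1641 and 2311 CPM and Ciita at 91.2, 97.8 and 87.0 CPM. The class II-low macrophages had 1279, 666 and 566 CPM.

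The level also differed within control macrophages by sex-linked RNA. Macrophages with a Y-linked and no Xist UMI were class II-high in 66.2% of 355 cells in DU101 and 45.7% of 280 cells in DU102. In control, cells with Xist and no Y-linked UMI (403 cells) had 17413 CPM of class II and were class II-high in 69.0% (64.2 to 73.5%), while cells with a Y-linked and no Xist UMI (226 cells) had 5944 CPM and were class II-high in 31.4% (25.4 to 37.9%). Their median depths were 7915 and 9041 UMIs. Set against the control macrophages with Y-linked RNA alone, the sum was higher by size in both treated libraries. Monocytes showed the same split, with 3530 CPM in 401 control cells with Xist alone and 498 CPM in 207 with Y-linked RNA alone, and so did neutrophils, with 3583 CPM in 103 and 212 CPM in 360 cells. B cells showed little of it, with 15192 CPM in 300 and 14558 CPM in 114 cells. The treated libraries hold hardly any cells with Xist. The treated ratios of monocytes, patrolling monocytes, macrophages, neutrophils, T cells and NK cells therefore depend on which control cells are used. Sorting control cells by Xist also sorts them by any Xist RNA carried over from class II-rich cells, and the size of that effect was not tested. Patrolling monocytes of DU101 and DU102 had ratios of 1.16 and 0.87 against all control cells. Against those with Y-linked RNA alone, they had 2.74 and 2.05.

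**Figure D4:**
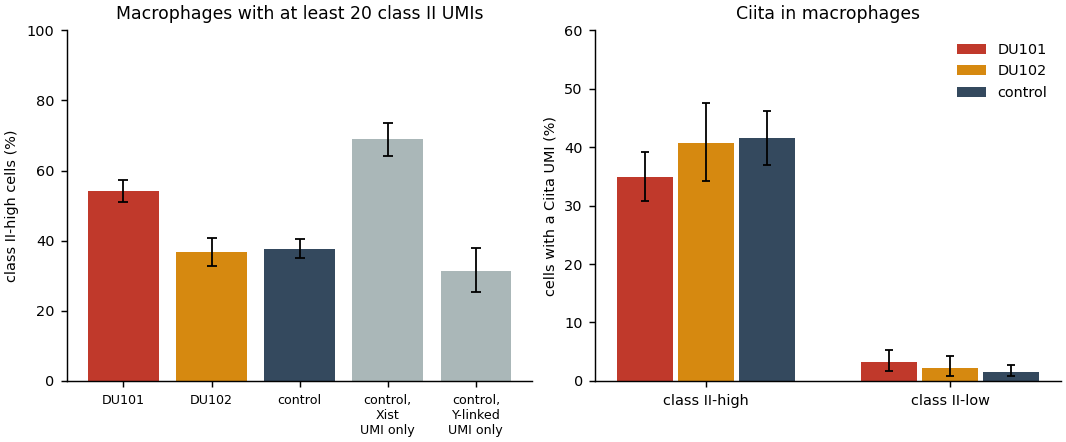
Left, percent of macrophages with at least 20 class II UMIs in DU101, DU102 and control and, in grey, in control cells with Xist UMIs only and with Y-linked UMIs only. Right, percent of class II-high and class II-low macrophages with a Ciita UMI. Bars are shares and lines exact 95% intervals. All DU101 cells are at 54.1%, the control cells with Xist only at 69.0% and those with Y-linked RNA only at 31.4%. The bars of whole libraries also include cells with neither kind of UMI. Ciita is seen in 34.9, 40.7 and 41.5% of class II-high cells.

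The H2-Eb1 differences were examined cell by cell, as the percent of a cell's class II UMIs that were H2-Eb1, in cells with at least 100 such UMIs. In cDC1 the median was 14.9% in DU101, 8.36% in DU102 and 10.0% in control. DU102 held a distinct set of cells nearly without H2-Eb1. A share under 3%, a limit set after the distribution had been seen, was found in 0 of 259 DU101 cDC1, 38 of 138 DU102 cDC1 (27.5%, 20.3 to 35.8%) and 0 of 182 control cDC1. Counts of 0 allow a share of up to 1.16% in DU101 and 1.65% in control. The median share was 0.263% in these 38 cells and 9.50% in the other 100, with 2 DU102 cells between 3 and 5%.

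H2-Eb1-low cells were found in all 7 gates examined in DU102. In cDC2 they were 1 of 175 cells in DU101, 19 of 63 in DU102 (30.2%) and 0 of 212 in control. Macrophages gave 0 of 324, 38 of 107 (35.5%) and 3 of 267 in DU101, DU102 and control, and B cells 0 of 41, 41 of 65 (63.1%) and 0 of 35. Migratory dendritic cells gave 0 of 84, 4 of 22 and 0 of 44, monocytes 1 of 51, 7 of 39 and 2 of 42, and pDC 2 of 63, 21 of 54 and 3 of 75. In each of these gates DU102 had the largest share. Over all gates these were 5 of 1090 cells in DU101, 181 of 534 in DU102 (33.9%, 29.9 to 38.1%) and 10 of 897 in control (1.11%). With limits of 2 and 4%, DU102 gave 168 and 194 such cells.

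The other members of the pathway differed far less between these cells and the rest of their gate. In DU102 cDC1, H2-Eb1 was at 97.1 CPM in the 38 low cells and 3154 CPM in the other 100. H2-Aa was at 6496 against 6758 CPM, H2-Ab1 at 8510 against 8613 CPM, Cd74 at 14620 against 14049 CPM and Ciita at 171 against 182 CPM, which gives ratios of 0.96, 0.99, 1.04 and 0.94. H2-DMb1 had a ratio of 0.82 (0.71 to 0.95). H2-DMb2 was higher by size at 117 against 76.3 CPM, a ratio of 1.53 (1.12 to 2.06) from 66 and 141 UMIs. In DU102 macrophages H2-Eb1 was at 92.6 against 3408 CPM, while H2-Aa had a ratio of 0.76, H2-Ab1 0.91, Cd74 0.87 and Ciita 0.69 (0.46 to 1.01). In DU102 B cells it was at 169 against 1116 CPM, beside ratios of 0.86 for H2-Aa, 1.02 for H2-Ab1, 0.99 for Cd74 and 0.99 for Ciita. Of the 3975 genes with at least 30 UMIs in both cDC1 and macrophages of DU102, 342 were lower by size in low cDC1 and 138 higher. In low macrophages 139 were lower and 138 higher. Besides H2-Eb1, 21 were lower in the low cells of both gates and 20 higher, none of them a member. How many genes would be shared by coincidence, given the calls in each gate, was not worked out. Chosen after their values were seen, Ddit4, a stress-induced inhibitor of mTOR signalling, was at 173 against 48.2 CPM in cDC1 and 270 against 62.9 CPM in macrophages, and Cxcl9, an interferon-induced chemokine, at 8.83 against 74.2 CPM and 46.3 against 140 CPM.

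DU101 stood apart at the upper end. A share of at least 14%, again a limit set after the values were seen, was found in 144 of 259 DU101 cDC1 (55.6%), 1 of 138 DU102 cDC1 and 10 of 182 control cDC1 (5.49%). For macrophages these counts were 181 of 324 (55.9%), 7 of 107 and 47 of 267, and for cDC2 98 of 175 (56.0%), 1 of 63 and 12 of 212. Between DU101 cDC1 below and above this limit, H2-Eb1 was at 3690 and 7140 CPM, while Ciita was at 158 CPM in both and the ratios of H2-Aa, H2-Ab1 and Cd74 were 0.90, 1.03 and 1.02. The H2-Eb1 share of control cDC1 did not follow sex-linked RNA, with medians of 9.94% in 135 cells with Xist alone and 10.6% in 28 with Y-linked RNA alone, and 29 of the 111 DU102 cDC1 with Y-linked RNA alone were H2-Eb1-low. Whether the cells low or high in H2-Eb1 come from single animals was not tested, since the files do not name the animals.

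**Figure D5:**
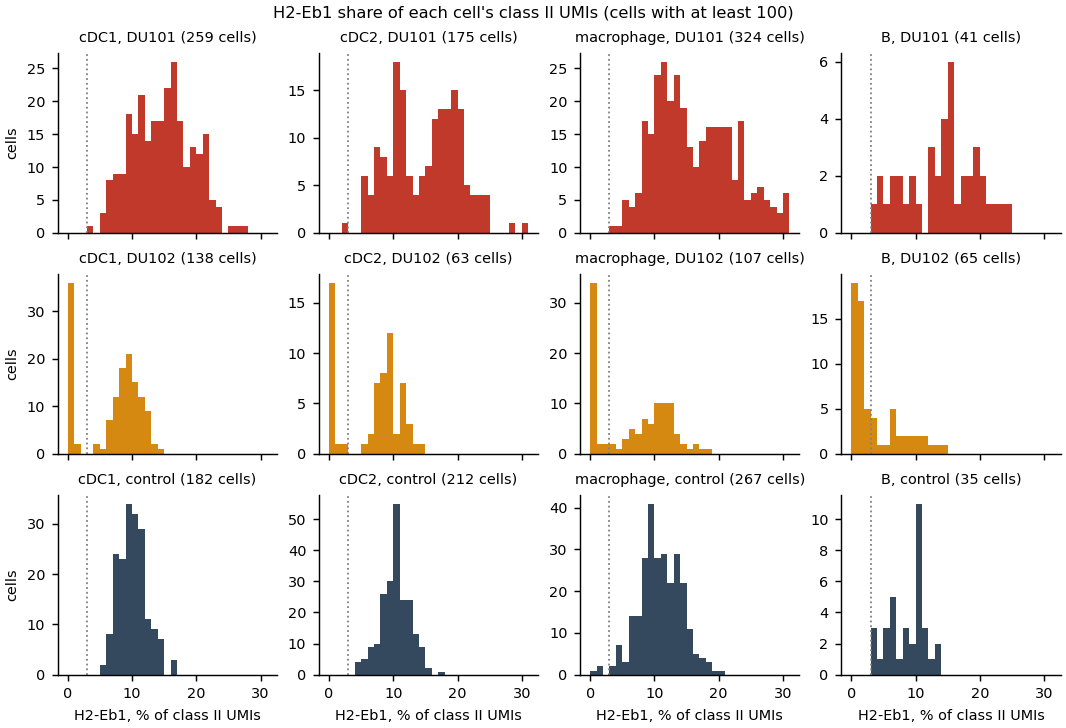
Number of cells (y axes differ) by the percent of class II UMIs that are H2-Eb1, in cDC1, cDC2, macrophages and B cells with at least 100 class II UMIs, for DU101 (top), DU102 (middle) and control (bottom); the dotted line marks 3% and the last bar collects the highest shares. DU102 has a separate peak near 0, with 38 of 138 cDC1 under 3%, and DU101 extends furthest to the right, with 144 of 259 cDC1 at 14% or more.

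The wider pathway was counted by lists, and counts of 0 or 1 in lists this short are near the shares over all genes given above. Of the class II transcription factors, 7 genes of the RFX and NF-Y complexes and Creb1, 0 of 7 measured were called in macrophages of DU101 against control (median log2 ratio 0.01, beside -0.07 over all genes), and 0 of 7 in cDC1 (-0.22 beside -0.09). Rfx5, a subunit of the complex on the X box, was lower in DU101 than in control B cells, at 7.48 against 16.5 CPM from 11 and 38 UMIs, 1 of 7 beside 6.84% of genes. It was higher in DU102 than in control cDC2, at 19.8 against 6.17 CPM from 14 and 18 UMIs, 1 of 6 measured beside 3.11%. Of the 12 regulators of Ciita, 0 of 10 measured were called in DU101 macrophages (median 0.09), and 0 of 9 in cDC1 of the same comparison. Of 13 genes of class II processing and turnover, which include the cathepsins and the thiol reductase Ifi30, 0 of 13 were called in DU101 macrophages (median -0.06). Of 8 costimulatory genes and their partners, 7 were measured in DU101 macrophages and in cDC1. Cd40, a receptor for T cell help, was higher by size in DU101 than in control macrophages, at 24.0 against 13.6 CPM, 1 of 7 beside 4.99% of genes, and also in cDC1, at 29.3 against 18.4 CPM, 1 of 7 beside 2.19%. Itgax, a dendritic cell integrin, was lower in DU101 macrophages at 73.1 against 130 CPM, 1 of 7 beside 6.63%. In DU102 Cd40 was lower than in control, at 7.05 CPM in macrophages and 9.09 CPM in cDC1, 1 of 7 in each beside 3.17 and 2.94%. Of 6 other genes of the class II region, H2-Eb2, the neighbour of H2-Eb1, was higher in DU101 than in control B cells, at 71.4 against 37.0 CPM, 1 of 6 beside 4.21%. In DU102 B cells H2-Eb2 was at 53.5 CPM, also above control without reaching the size, whereas H2-Eb1 was lower there than in control. The 5 class I genes set beside them had 0 calls of 5 in macrophages and in cDC1 of DU101 against control.

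The genes outside the pathway whose levels were most like its own were sought across cell types. Over 44 gate-by-library sums of at least 50 cells from 16 gates, and among 9809 genes with at least 20 CPM in 1 of them, the Pearson r of log2(CPM + 1) with the summed class II level was 0.90 for Pkib, 0.89 for Fgd2 and Ifi30, 0.88 for Rab39, 0.83 for Rtl5, 0.81 for Irf5 and Tnni2, and 0.80 for Ly86, Slc46a3 and Icosl. Within the pathway, r with Ciita was 0.96 for H2-Aa and Cd74, 0.97 for H2-Ab1, 0.92 for H2-Eb1 and 0.94 for H2-DMa, and lower, 0.74 and 0.79, for H2-Oa and H2-Ob. Rab39 was the gene outside the members most like Ciita, at 0.90, followed by Fgd2 at 0.89, Pkib at 0.88, Ifi30 at 0.87 and Ly86 at 0.84. Sums of one gate or one library share cells' origin, depth and carried-over RNA, so these values describe the points and carry no p.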

How the data were processed

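The deposited matrices hold raw counts of UMIs per gene and barcode. Cell Ranger 6.0.0 wrote them per the file headers, while the submitters' processing notes name Cell Ranger 2.1.1 and mm10. Which gene annotation was counted is unstated. Every library's lowest total was 500 UMIs, so the barcodes had been filtered before deposit. The authors' deposited tables of cluster genes assign no barcode to a cluster and were not used. Gene positions come from GENCODE vM21 and promoters from RefSeq GRCm38.p6.

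A cell was kept if it had 200 genes or more and no more than 10% mitochondrial UMIs. More than 10% was found in 9.09, 14.0 and 17.4% of barcodes in DU101, DU102 and control. Doublets were called per library by Scrublet (scanpy 1.11.5; expected rate 0.008 for every 1000 barcodes; cells over 20% mitochondrial UMIs left out), and made up 3.14, 2.06 and 2.53%. A cell took the type with the highest share of its markers detected, with at least 3 markers and a lead of 15 percentage points. UMIs were summed per gate and library and divided by the gate's total (CPM). Ratios have exact Poisson intervals, shares exact Clopper-Pearson intervals, and a count of 0 a limit of 3 counts. With 1 library per group no test was made and no p is given. The scripts that make the calls by size were checked on simulated counts. All 10 members are named by rule. The members and gene lists were chosen with earlier results of these data known. Alternatives were other filters, gates, scalings (TMM of edgeR 4.0.16 in R 4.3.3), thinning, control cells with Y-linked RNA and a 2-fold size. The scripts ran in Python 3.11.15 with pandas 2.3.3, numpy 2.4.6, scipy 1.17.1, Biopython 1.88 and matplotlib 3.10.9.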

Additional observations from a re-analysis of the deposited data

Results flagged for a closer look

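Among 13 gates, some ratios of the summed class II level went past 1.5-fold in only part of the gates, without a test of the difference between gates. In DU101 against control the log2 ratio was 0.87 in macrophages, 3.51 in neutrophil precursors, 0.59 in T cells and 1.15 in NK cells, but -0.84 in the endothelial gate. In DU102 against control it was 2.58 in neutrophil precursors, -1.10 in neutrophils, -0.93 in the hepatocyte or tumour gate and -3.05 in the endothelial gate. The 20.1% of cells in no gate, which the comparisons above leave out, held 10482 CPM of class II RNA in DU101, 4879 CPM in DU102 and 9142 CPM in control. A Ciita UMI was seen in 15.6, 12.0 and 17.9% of these cells, against 1.37, 1.69 and 1.71% of T cells, and 5 of 538 in DU101, 58 of 217 in DU102 and 6 of 311 in control of those with at least 100 class II UMIs were H2-Eb1-low.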

How the results depend on the processing

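No paired analysis was possible because each group has 1 library and all carry replicate number 1. The number of gates with a class II sum higher by size in DU101 than in control, 4, was 2 with a 2-fold size and 2 without the class II-high cells of the low gates. Against control cells holding Y-linked RNA alone, 7 gates were left. There the DU101 ratio was 2.72 to 5.86 in all of them but B cells, at 1.23. The number with a lower sum, 1, was 2 with a mitochondrial limit of 5%. It was 0 under the stricter gate, with every cell weighted alike, with cells thinned to 2000 UMIs, at 2-fold and without class II-high cells. It was also 0 against control cells holding Y-linked RNA but no Xist, but the endothelial gate was not among those left there. For DU102 against control, 1 gate was higher, but 6 against control cells holding Y-linked RNA alone, where 7 gates were left, and 0 without class II-high cells. The 3 lower gates became 0 against those control cells, where of these only neutrophils were left to be compared. For DU101 against DU102, the 7 higher gates became 4 of the 7 left and 2 at 2-fold.

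Turns of direction were counted only for ratios called by size in the main setting. They were 19 beside 4158 log2 ratios of members over all settings, and 2 beside 528 of the sum. Ratios not called turned as well, such as the sum in neutrophils of DU101 against control, from -0.28 to 1.44. A further 204 of the 528 lay outside the Poisson interval of the main ratio, as did 554 of the 4158. With a mitochondrial limit of 5%, H2-Eb1 in the hepatocyte or tumour gate was at -0.11 in DU101 against control, and under the stricter gate Cd74 there was at 0.17 in DU102 against control. With every cell weighted alike, neutrophils had Ciita at 0.31 in DU101 against control, and H2-DMa at 0.13, H2-Oa at 0.72 and Ciita at 0.13 in DU102 against control. Thinned, endothelial Cd74 was at 0.00835 in DU101 against control. Against control cells holding Y-linked RNA alone, DU102 patrolling monocytes had H2-Eb1 at 0.14, and DU102 neutrophils had H2-Aa at 0.52, H2-Ab1 at 0.78, H2-Eb1 at 0.53, Cd74 at 0.61, H2-DMb1 at 0.028 and the sum at 0.63. Without class II-high cells, DU101 against control gave H2-Ab1 in NK cells at -0.016 and, in the endothelial gate, H2-Aa at 0.13, H2-Ab1 at 0.15, Cd74 at 0.052 and the sum at 0.21. There, H2-Eb1 in neutrophil precursors was at -0.27 in DU102 against control, and H2-Ab1 in NK cells at -0.051 in DU101 against DU102. The causes were not tested. The settings without class II-high cells, without H2-Eb1 and with limits of 2 and 4% for H2-Eb1 were added after the data had been seen.

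With 1 library per group, the spread between animals is unknown, and every interval is narrower than one that held it. Depth limits the shares of cells with a Ciita UMI, which in cDC1 were 86.6, 91.4 and 92.9% at full depth and 30.3, 32.4 and 28.4% at 2000 UMIs in DU101, DU102 and control.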
